A study of Mus musculus with 12 samples.

Results

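The genes described are 42 that carry out or control DNA replication and mitosis, chosen by symbol from their known roles, with earlier results of these data known. All 42 were found among the 17175 genes of the deposited table, and they were taken as 23 S phase genes and 19 mitotic genes. The libraries are RNA-seq of mouse small intestine, a mixed tissue, 3 libraries in each of 4 groups: distal segment labelled Bmpr1a cKO, distal segment labelled WT, proximal segment labelled Bmpr1a cKO and proximal segment labelled WT. A cKO is a conditional knockout, here of Bmpr1a, the gene of a receptor for BMPs (bone morphogenetic proteins). The stated question was how BMP signals in the epithelium relate to the length of the villi along the intestine. The age, strain and Cre driver are not given in the sources used here, nor is it said outright that each library of a group is another animal, so p-values cover the spread between libraries, part of which may be technical.

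A cell that commits to divide passes from G1 into S phase, where the replication genes are switched on by E2F transcription factors once the retinoblastoma protein releases them. The mitotic genes come on later, under B-Myb and FoxM1, through promoter elements that hold them off in resting cells. In the small intestine, division of epithelial cells takes place in the crypts and not on the villi, and BMP signals are strongest on the villi. The distal small intestine also carries lymphoid follicles (Peyer's patches), whose germinal centre B cells divide rapidly, so transcripts of these genes in a mixed tissue can come from more than 1 cell type.

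The promoters of the replication and the mitotic genes carried different short motifs. A promoter window of 250 bases before to 50 bases after the start site was available from RefSeq (GRCm38.p6) for 35 of the 42 genes. The E2F motif was searched as TTTGGCGC, TTTCCCGC, TTTGCCGC or TTTCGCGC, the CHR element (cell cycle genes homology region) as TTTGAA or TTCGAA, and the CCAAT box, bound by NF-Y, as CCAAT, each on both strands. An E2F motif was in 10 of 20 S phase genes (40.0% of their 25 windows) and in 1 of 15 mitotic genes (6.67%), against 2.26% of all 32851 promoter windows. A CHR element was in 4 of 20 S phase genes (16.0% of windows) and in 11 of 15 mitotic genes (73.3%), against 19.2% of all windows. A CCAAT box was in 11 of 20 S phase genes (56.0% of windows) and in 13 of 15 mitotic genes (86.7%), against 37.4% of all windows. A match is a run of letters in a window and not evidence of binding.

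**Figure D1:**
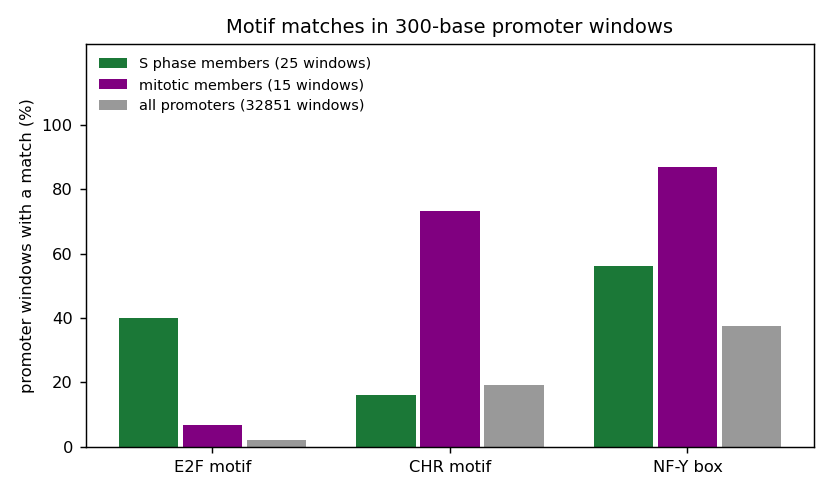
Percentage of promoter windows of 300 bases with at least 1 match to the E2F motif, the CHR element or the NF-Y box (CCAAT), for the S phase genes (green), the mitotic genes (purple) and all promoters (grey). The E2F motif is most frequent in the S phase windows (40.0%) and the CHR element in the mitotic windows (73.3%).

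The promoters of Uhrf1, Mcm5 and Top2a are shown because Uhrf1 and Mcm5 had the smallest p-values of the S phase genes, and Top2a that of the mitotic genes, both in distal cKO over WT and along the WT intestine. Nusap1, next to Top2a among the mitotic genes in distal intestine, had no match to any of the 3 motifs in its window, and its sequence is not printed. They are read 5′ to 3′ on the gene's own strand, with motif matches in capitals. Mcm5 (chr8:75109259-75109558, plus strand) has 2 E2F matches on opposite strands that overlap by 4 bases, followed by 3 CCAAT boxes. Uhrf1 (chr17:56304063-56304362, plus strand) has 1 E2F match and 2 CCAAT boxes in the window shown. A second RefSeq window of Uhrf1 had no E2F match. Top2a (chr11:99024140-99024439, minus strand) has 4 CHR elements and 6 CCAAT boxes.
Mcm5: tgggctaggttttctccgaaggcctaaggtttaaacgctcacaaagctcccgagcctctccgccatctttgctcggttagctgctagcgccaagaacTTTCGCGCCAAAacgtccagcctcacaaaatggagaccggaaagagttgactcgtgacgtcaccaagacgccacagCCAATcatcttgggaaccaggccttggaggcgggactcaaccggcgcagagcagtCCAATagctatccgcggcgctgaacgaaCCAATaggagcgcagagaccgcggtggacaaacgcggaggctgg
Uhrf1: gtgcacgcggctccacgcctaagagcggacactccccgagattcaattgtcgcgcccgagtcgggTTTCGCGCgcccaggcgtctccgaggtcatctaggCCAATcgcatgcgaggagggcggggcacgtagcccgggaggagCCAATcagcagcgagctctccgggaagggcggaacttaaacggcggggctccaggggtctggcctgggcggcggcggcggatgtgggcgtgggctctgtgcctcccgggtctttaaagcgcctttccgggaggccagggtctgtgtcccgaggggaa
Top2a: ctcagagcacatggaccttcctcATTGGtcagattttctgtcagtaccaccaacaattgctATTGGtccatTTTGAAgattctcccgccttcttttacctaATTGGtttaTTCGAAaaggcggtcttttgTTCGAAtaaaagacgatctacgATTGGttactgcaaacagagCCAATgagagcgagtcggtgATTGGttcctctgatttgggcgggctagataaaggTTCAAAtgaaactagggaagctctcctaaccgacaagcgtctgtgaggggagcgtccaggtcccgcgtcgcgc

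Each library held 11242024 to 17722756 reads recovered from the deposited values, and values below are scaled read counts unless said to be per kilobase. The Bmpr1a transcript itself was at 486 to 668 in cKO distal and 438 to 631 in WT distal libraries, and at 833 to 1087 in cKO proximal and 772 to 1029 in WT proximal libraries. Its log2 fold change was 0.06 in distal and 0.01 in proximal intestine (limma adjusted p = 0.852 and 0.983). This gene count sums all exons and the tissue is mixed, so it neither bears out nor contradicts a deletion of some exons in the epithelium, and cKO stands below for the label. The epithelial marker Epcam was at 26961 to 42646 in cKO distal, 13078 to 22494 in WT distal, 19054 to 24013 in cKO proximal and 11867 to 23053 in WT proximal libraries. The 6 smooth muscle markers summed to 113 to 218 counts in cKO distal and 195 to 498 in WT distal libraries. Their sums were 38.4 to 48.7 in cKO proximal and 66.6 to 149 in WT proximal libraries. How much of the muscle wall the samples held was not tested. Mitochondrial transcripts took 9.95% to 27.7% of reads in cKO distal, 22.3% to 37.7% in WT distal, 9.75% to 14.8% in cKO proximal and 17.4% to 26.0% in WT proximal libraries.

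In distal intestine, replication and mitotic genes were lower in the libraries labelled cKO than in those labelled WT. Of the 23 S phase genes, 17 fell and 0 rose, and of the 19 mitotic genes, 10 fell and 0 rose (limma on log2(value + 1), Benjamini-Hochberg adjusted p under 0.05), where 11.7% of all genes fell and 13.3% rose. The median log2 fold change was -1.14 over the S phase genes and -0.89 over the mitotic genes, against 0.06 over all genes. In 20 S phase and 13 mitotic genes every cKO distal library was below every WT distal library, as in 15.9% of all genes. In mixed tissue, fewer dividing cells and less of these transcripts per cell cannot be told apart.

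**Figure D2:**
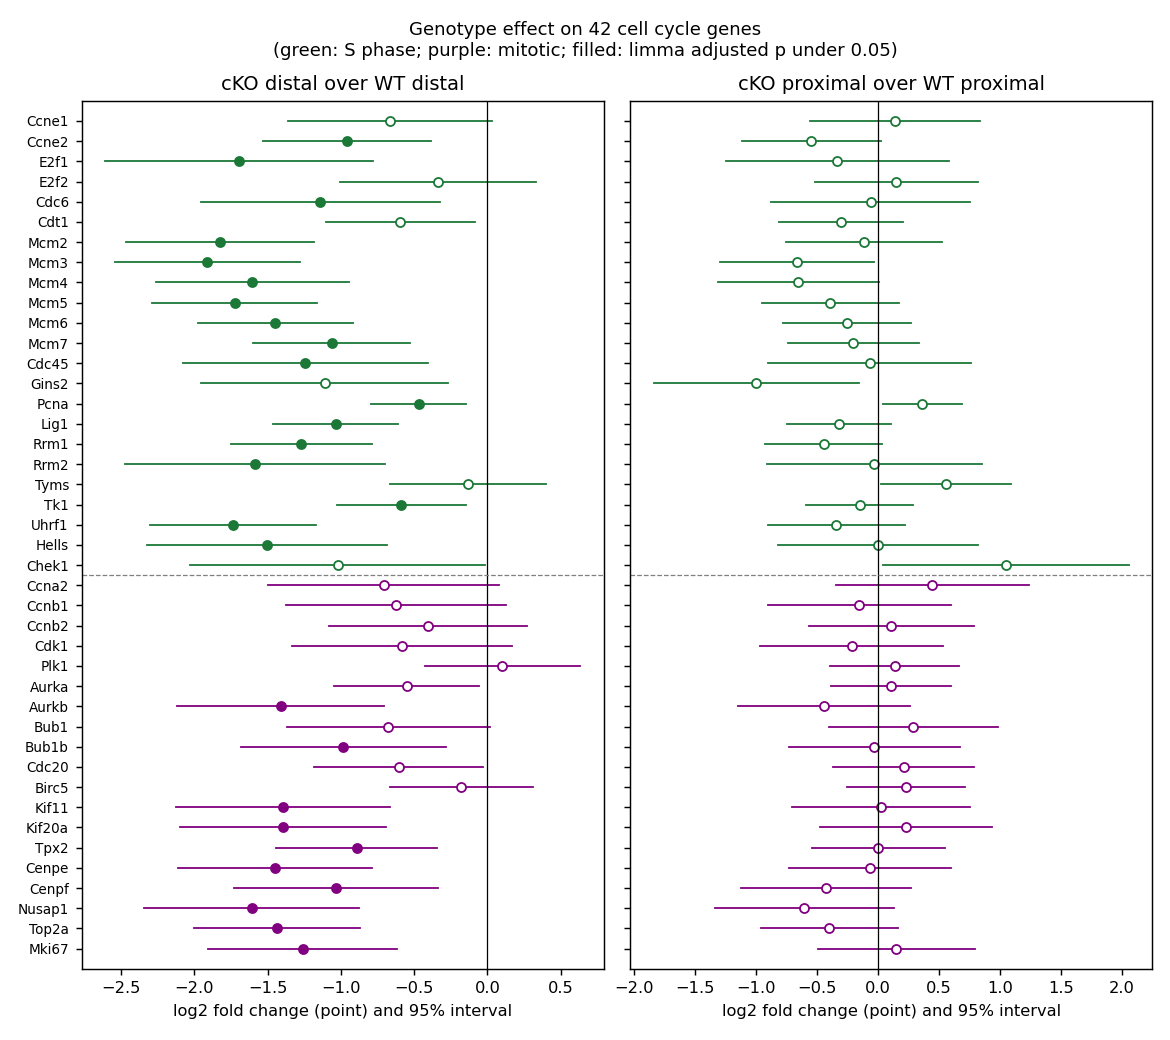
Log2 fold change with its 95% interval (horizontal axis) of the 23 S phase genes (green) and the 19 mitotic genes (purple), for cKO over WT in distal intestine (left panel) and in proximal intestine (right panel). Filled points passed a limma adjusted p under 0.05: 27 genes in distal and 0 in proximal intestine.

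Among the regulators of entry into S phase, E2f1, a transcription factor that switches on replication genes, had 22.2, 40.7 and 59.5 counts in cKO distal libraries, against 141, 139.8 and 98.0 in WT distal libraries. Its log2 fold change was -1.69 ± 0.43 (SE; limma adjusted p = 0.0105). Ccne2, cyclin E2, which with Cdk2 drives the start of replication, had 51.9, 53.9 and 52.1 counts in cKO distal libraries, against 96.2, 111 and 103 in WT distal libraries. The groups did not overlap for either gene, and Ccne2 fell by 0.96 ± 0.27 on the log2 scale (limma adjusted p = 0.0177), with little spread among its cKO libraries. The sister genes did not pass the test. Ccne1, cyclin E1, averaged 51.2 ± 10.2 in cKO distal and 81.1 ± 10.2 in WT distal libraries (SD, n = 3 each; limma adjusted p = 0.154). E2f2, a further activating E2F, had 334, 707 and 334 counts in cKO distal libraries, against 583, 632 and 430.1 in WT distal libraries, which overlap (limma adjusted p = 0.471).

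Of the 10 genes that license origins and unwind DNA, 8 fell in distal intestine. The Mcm2 to Mcm7 proteins form the hexameric core of the replicative helicase, and all 6 of their genes fell, by 1.06 (Mcm7) to 1.91 (Mcm3) on the log2 scale. Mcm5 had 148, 282 and 302 counts in cKO distal libraries, against 761, 871 and 695 in WT distal libraries (a log2 fold change of -1.73 ± 0.26 SE, limma adjusted p = 0.000391). Mcm3 had 116, 194 and 274 counts in cKO distal libraries, against 699, 826 and 579 in WT distal libraries (-1.91 ± 0.29 SE, limma adjusted p = 0.000426). For both genes every cKO library was below every WT library, and cKO library 1 was the lowest of all 6.

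Per kilobase of exon, the levels of 5 of the 6 helicase genes lay close together in WT distal libraries. In cKO distal libraries they were further apart in proportion and in another order. Mcm7 was the lowest of the 5 in WT distal and the highest in cKO distal libraries. Mcm3, Mcm4, Mcm5, Mcm6 and Mcm7 averaged 52.0, 56.0, 61.1, 71.5 and 79.4 counts per kilobase in cKO distal libraries. The same 5 averaged 186.9, 163, 194, 191 and 159.5 counts per kilobase in WT distal libraries. Mcm2 was the lowest of the 6 in both, at 26.2 counts per kilobase in cKO distal and 90.2 in WT distal libraries. This rank depends on the exon length used. By scaled count, Mcm2 averaged 627 and Mcm4 585 in WT distal libraries. Cdc6, which loads the helicase onto origins, and Cdc45, which joins it to form the active enzyme, fell by 1.14 ± 0.38 and 1.24 ± 0.39 on the log2 scale (SE; limma adjusted p = 0.0417 and 0.0313). Gins2, a subunit of the GINS complex of the active helicase, lay just past the threshold, with 20.1, 34.8 and 37.2 counts in cKO distal libraries, against 68.2, 65.8 and 62.2 in WT distal libraries (a log2 fold change of -1.11, limma adjusted p = 0.052). Cdt1, the partner of Cdc6 in licensing, averaged 218 ± 56.1 in cKO distal and 328 ± 81.6 in WT distal libraries (SD, n = 3 each; limma adjusted p = 0.0839).

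Of the genes of the replication fork and the supply of nucleotides, 5 of 6 fell in distal intestine. Rrm1, the large subunit of ribonucleotide reductase, had 226, 341 and 332 counts in cKO distal libraries, against 699, 884 and 585 in WT distal libraries (a log2 fold change of -1.27 ± 0.22 SE, limma adjusted p = 0.00115). Lig1, the ligase that joins Okazaki fragments, had 199, 294 and 323 counts in cKO distal libraries, against 581, 566 and 499 in WT distal libraries (-1.04 ± 0.20 SE, limma adjusted p = 0.00202). Neither gene's groups overlapped. Rrm2, the small subunit of the reductase, fell by 1.59 ± 0.41 on the log2 scale (SE; limma adjusted p = 0.0126).

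Pcna, the sliding clamp of the polymerases, was the most abundant S phase gene per kilobase and fell least among the S phase genes that passed. It had 848, 917 and 971 counts in cKO distal libraries, against 1289.5, 1374 and 1133 in WT distal libraries (a log2 fold change of -0.47 ± 0.15 SE, limma adjusted p = 0.0339). Tk1, thymidine kinase, lay just inside the threshold (-0.59 ± 0.20 SE, limma adjusted p = 0.0499). Tyms, thymidylate synthase, had the S phase fold change closest to 0. Its counts were 142, 162 and 187 in cKO distal libraries, against 152, 197 and 189.7 in WT distal libraries, which overlap (-0.14 ± 0.25 SE, limma adjusted p = 0.735).

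Among genes of chromatin upkeep at the fork, Uhrf1, which recruits the maintenance DNA methyltransferase to newly made DNA, had the smallest adjusted p of all 42 genes in this comparison. It had 121, 219.9 and 229.7 counts in cKO distal libraries, against 615, 719 and 516 in WT distal libraries (a log2 fold change of -1.74 ± 0.26 SE, limma adjusted p = 0.000383). Hells, a chromatin remodeller also needed for DNA methylation, had 37.1, 109.5 and 128 counts in cKO distal libraries, against 205, 299 and 199 in WT distal libraries (-1.50 ± 0.38 SE, limma adjusted p = 0.0111). In both genes the groups were apart and cKO library 1 was lowest. Chek1, the kinase of the replication checkpoint, overlapped between the groups, with 13.8, 32.4 and 47.8 counts in cKO distal libraries, against 64.5, 74.0 and 40.1 in WT distal libraries (limma adjusted p = 0.129).

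The mitotic genes fell unevenly in distal intestine. All 8 genes of the spindle, the kinetochore and the mitotic chromosome fell, while 1 of 7 cyclins and kinases and 1 of 4 genes of the spindle checkpoint and anaphase passed the test. Top2a, the topoisomerase that untangles sister chromatids, had 286, 633 and 443 counts in cKO distal libraries, against 1023, 1354 and 1157 in WT distal libraries (a log2 fold change of -1.44 ± 0.26 SE, limma adjusted p = 0.0015). Nusap1, a spindle microtubule bundler, had 54.0, 141 and 80.8 counts in cKO distal libraries, against 245, 306 and 239 in WT distal libraries (-1.61 ± 0.34 SE, limma adjusted p = 0.00394). The groups did not overlap in either gene. Mki67, whose product Ki-67 coats mitotic chromosomes and is the usual stain for proliferating cells, had 269, 762 and 442 counts in cKO distal libraries, against 919, 1278 and 1069 in WT distal libraries (-1.26 ± 0.30 SE, limma adjusted p = 0.00774).

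The motor genes Kif11, which pushes the spindle poles apart, and Kif20a, needed for cytokinesis, each fell by 1.40 on the log2 scale, and the kinetochore motor Cenpe fell by 1.45 (limma adjusted p = 0.00865, 0.00708 and 0.00406). Cenpf, a further kinetochore protein, fell by 1.03, and Tpx2, which activates aurora A on the spindle, fell by 0.89 (limma adjusted p = 0.0315 and 0.0206).

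Aurkb, aurora kinase B, which corrects faulty attachments of chromosomes, was the only cyclin or kinase of mitosis that passed. It had 59.3, 134 and 94.6 counts in cKO distal libraries, against 237, 298 and 206 in WT distal libraries (a log2 fold change of -1.41 ± 0.33 SE, limma adjusted p = 0.00671). Aurka, aurora kinase A of the spindle poles, had 104, 140.2 and 136 counts in cKO distal libraries, against 191, 196 and 168 in WT distal libraries. Its groups did not overlap, but its log2 fold change of -0.55 ± 0.23 (SE) did not pass (limma adjusted p = 0.0955). The cyclins Ccna2, Ccnb1 and Ccnb2 and their kinase Cdk1 overlapped between the groups, with log2 fold changes of -0.71, -0.63, -0.41 and -0.58 (limma adjusted p = 0.182 to 0.379). In these 4 genes cKO distal library 2 or 3 reached into the WT range. Ccna2, for example, had 134, 428 and 260.5 counts in cKO distal libraries, against 364, 493 and 363 in WT distal libraries.

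Plk1, polo-like kinase 1, was the only gene of the 42 whose distal fold change was above 0. It had 361, 426 and 682 counts in cKO distal libraries, against 418, 366 and 554 in WT distal libraries (a log2 fold change of 0.10 ± 0.25 SE, limma adjusted p = 0.802). Its 95% interval of -0.43 to 0.63 leaves out a fall as large as the median of the mitotic genes. Bub1b, the BubR1 protein of the spindle checkpoint, had 94.3, 241 and 172 counts in cKO distal libraries, against 281, 371 and 293 in WT distal libraries (-0.98 ± 0.33 SE, limma adjusted p = 0.04). Cdc20, which activates the anaphase-promoting complex, had 236, 397 and 276 counts in cKO distal libraries, against 449, 455 and 449 in WT distal libraries (-0.61 ± 0.27 SE, limma adjusted p = 0.118). The checkpoint kinase Bub1 and Birc5, survivin, did not pass either (log2 fold change -0.68 and -0.18, limma adjusted p = 0.145 and 0.61).

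**Figure D3:**
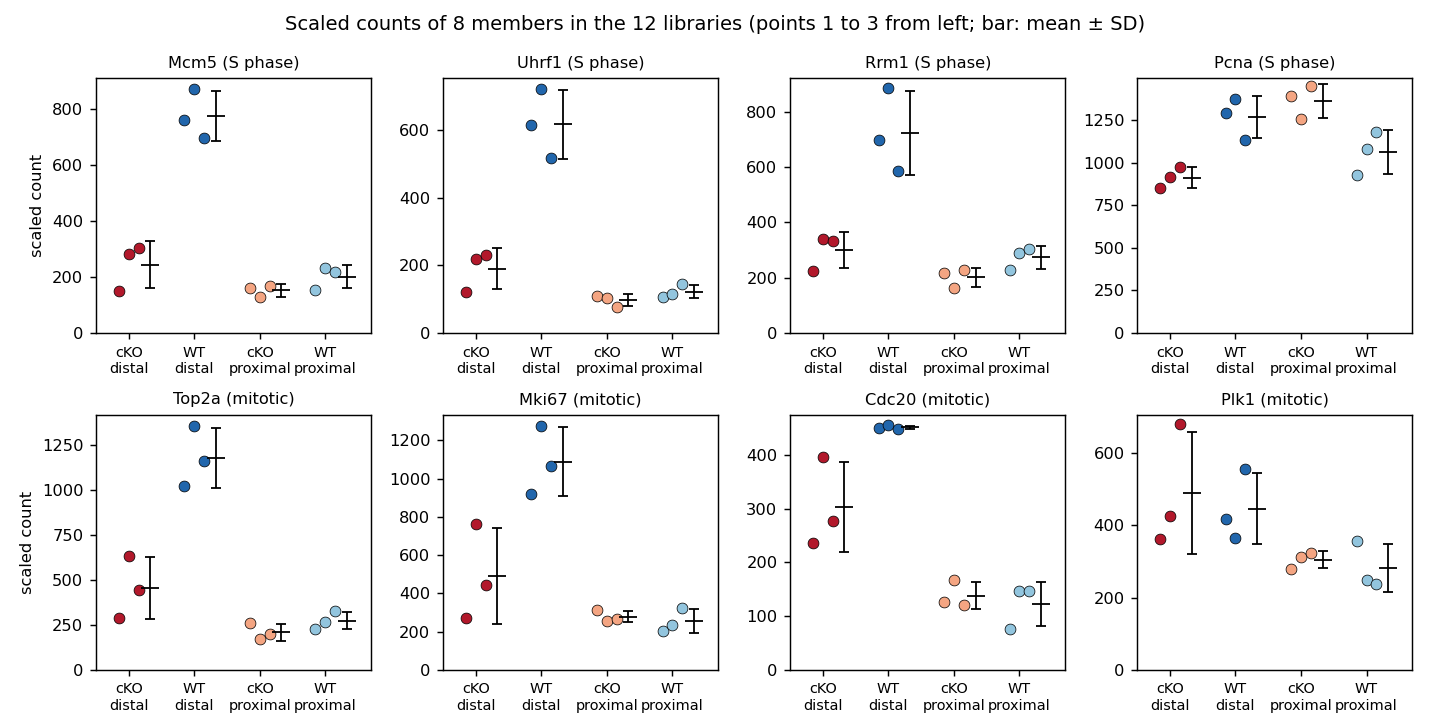
Scaled counts (vertical axis, starting at 0) of 4 S phase genes (top row) and 4 mitotic genes (bottom row) in each library (points, numbered 1 to 3 from the left), with mean ± SD of each group (bars). Mcm5, Uhrf1, Rrm1, Pcna, Top2a, Mki67 and Cdc20 are lower in all 3 cKO distal than in all 3 WT distal libraries, and Plk1 overlaps.

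The cKO distal libraries differed among themselves. The mean log2 level of the S phase genes was 6.57, 7.34 and 7.42 in cKO distal libraries 1, 2 and 3, against 8.26, 8.47 and 8.07 in WT distal libraries. The mean level of the mitotic genes was 6.77, 7.87 and 7.45 in cKO distal libraries, against 8.16, 8.41 and 8.21 in WT distal libraries. Both means were thus lowest in cKO distal library 1. Without it, 10 S phase and 7 mitotic genes fell. Without WT distal library 2, which had the highest means, the counts were 10 and 7 too, and over the 6 fits that each left out 1 library they ranged over 10 to 18 and 7 to 11. The 9 S phase genes that passed in all 6 fits were Mcm2, Mcm3, Mcm4, Mcm5, Mcm6, Mcm7, Lig1, Rrm1 and Uhrf1, and the 7 mitotic genes were Aurkb, Kif11, Kif20a, Cenpe, Nusap1, Top2a and Mki67. E2f1 lost its call without cKO distal library 1 (adjusted p = 0.0603), Hells without WT distal library 2 (0.0583), and Ccne2 and Rrm2 without either. Cdc45 and Tpx2 passed in 3 of the 6 fits, Cdc6 and Pcna in 2, and Tk1, Bub1b and Cenpf in 1.

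Markers of B cells were also lower in cKO distal than in WT distal libraries. Among the cKO distal libraries they did not rank as the mitotic genes did, and among the WT distal libraries they did. In cKO distal libraries 1, 2 and 3 the B cell marker sums were 294.5, 155 and 549, and the mitotic gene sums 2502.5, 5301 and 4110. In WT distal libraries 1, 2 and 3 the B cell marker sums were 7237, 23125 and 14519, and the mitotic gene sums 6400, 7840 and 6889. Which cells the mitotic transcripts came from was not tested. All 10 B cell markers were lower in cKO distal libraries, with a median log2 fold change of -5.53, and their summed level was 155 to 549 in cKO distal libraries, against 7237 to 23125 in WT distal libraries. No B cell marker was at 0 reads in any library. All 8 markers of germinal centre B cells were lower too, with sums of 397 to 544 in cKO distal and 2375 to 3683 in WT distal libraries. Cd79a, part of the B cell receptor, had 65.7, 34.0 and 108.5 counts in cKO distal libraries, against 1442, 4243 and 2976 in WT distal libraries. Of 10 T cell markers 5 were lower, and of 8 myeloid markers 4, where 11.7% of all genes were lower and 13.3% higher. Of 12 crypt stem cell markers 4 were higher and 2 lower, and 4 of 10 villus enterocyte and 4 of 8 epithelial markers were higher. The crypt stem cell markers summed to 3346 to 4037 in cKO distal and 1702 to 2424.5 in WT distal libraries, while their mean log2 level overlapped. Lgr5 and Olfm4, markers of crypt base stem cells, had log2 fold changes of -0.22 and -0.25 (limma adjusted p = 0.823 and 0.819). Other markers of this list moved strongly in both directions, from -2.15 (Ascl2) to 2.74 (Smoc2, limma adjusted p = 0.000178).

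A fit with the mean level of the 18 B cell and germinal centre markers as a covariate called 0 of the 42 genes in distal intestine, and 0 of all 17175 genes. In that fit 36 of the 42 genes kept a fold change below 0, with a median of -0.72, but the median standard error grew to 1.07, against 0.31 without the covariate. The marker level of cKO distal minus WT distal libraries was -5.10 (log2), with a standard deviation of 0.68 within groups, so the genotype and the B cell content of the distal libraries cannot be told apart. With the mitochondrial share as covariate, 6 S phase and 2 mitotic genes fell, with a median over the 42 of -0.88.

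**Figure D4:**
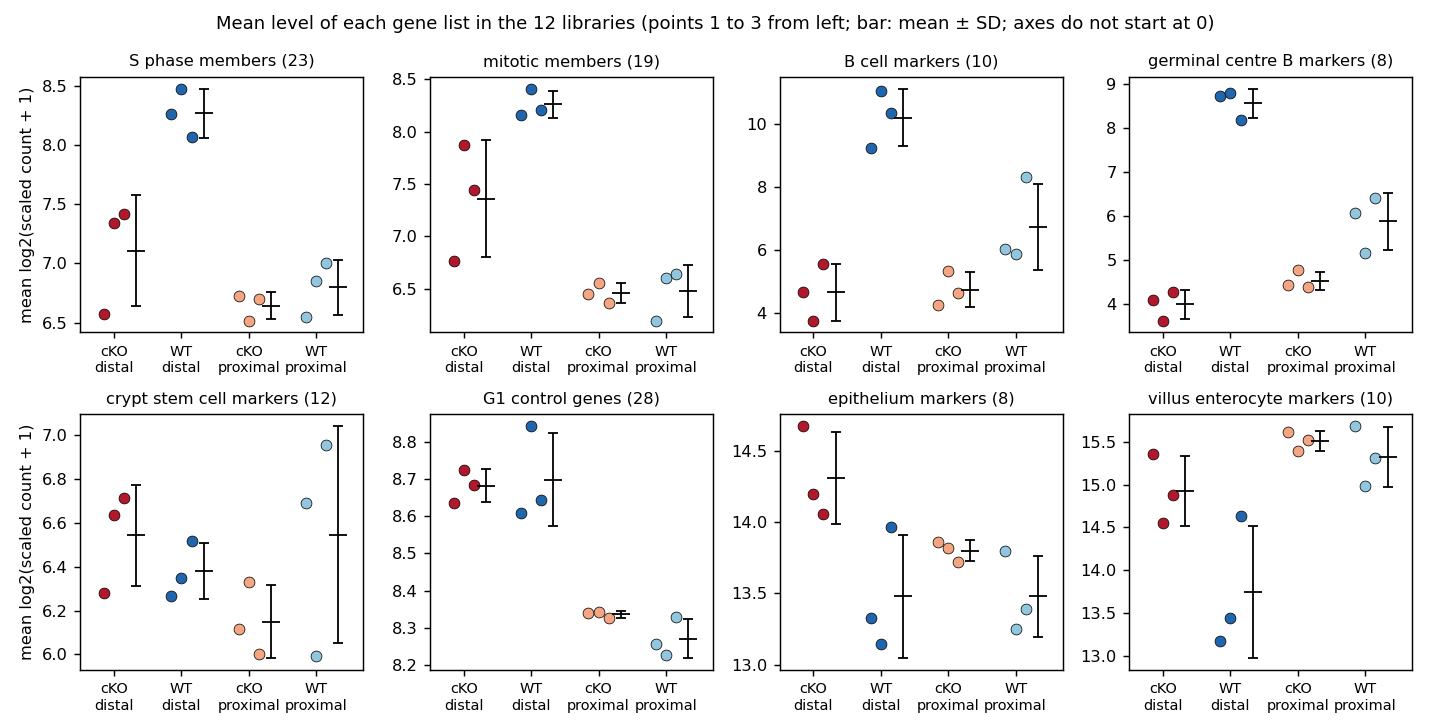
Mean log2(scaled count + 1) over the genes of 8 lists (vertical axes, which do not start at 0) in each library (points, numbered 1 to 3 from the left), with mean ± SD of each group (bars). The S phase, mitotic, B cell and germinal centre lists are highest in the 3 WT distal libraries. By this mean, though not by its sum, the list of crypt stem cell markers overlaps between cKO distal and WT distal libraries.

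In proximal intestine no replication or mitotic gene passed the test. Of the 42 genes 0 rose and 0 fell by limma, and 0 by edgeR and by DESeq2, where 8.26% of all genes changed in either direction. At an unadjusted p under 0.05, 5 S phase and 0 mitotic genes differed, against 4324 of all 17175 genes, a larger share. The median log2 fold change was -0.20 over the S phase genes and 0.03 over the mitotic genes, against 0.08 over all genes. With TMM scaling these medians were -0.32 and -0.09, against -0.03 over all genes, and the split of all genes called was 567 higher and 861 lower, against 723 and 695. Of the 10 B cell markers 3 were lower, and the median of the 10 was -2.08 (log2).

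Gins2 had the smallest p of the S phase genes in proximal intestine, with 8.08, 13.8 and 16.8 counts in cKO proximal libraries, against 22.1, 19.1 and 39.8 in WT proximal libraries (-0.996 ± 0.39 SE on the log2 scale, limma adjusted p = 0.133). Pcna came next and ran the other way, with 1388, 1252 and 1447 counts in cKO proximal libraries, against 924, 1081 and 1177 in WT proximal libraries (0.37 ± 0.15 SE, limma adjusted p = 0.146). Neither gene's groups overlapped, and neither passed the test. Among the mitotic genes, Nusap1 averaged 47.3 ± 9.11 in cKO proximal and 73.8 ± 22.6 in WT proximal libraries (SD, n = 3 each; limma adjusted p = 0.293). Top2a averaged 208 ± 46.6 in cKO proximal and 273 ± 49.5 in WT proximal libraries (SD, n = 3 each; limma adjusted p = 0.376), and its groups overlap. Mki67 averaged 278 ± 29.9 in cKO proximal and 254 ± 62.6 in WT proximal libraries (SD, n = 3 each; limma adjusted p = 0.794).

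Whether the genotype effect differed between the segments was tested as an interaction, the distal effect minus the proximal effect. No gene of the 42 passed by limma, where 0.576% of all genes did. All 42 interaction terms were below 0, with a median of -0.95, against -0.003 over all genes. Of the 42, 22 had an unadjusted p under 0.05 (14 S phase and 8 mitotic genes), against 2265 of all 17175 genes. Mcm2 came closest, with 107, 219 and 221 counts in cKO distal and 602, 787 and 493 in WT distal libraries, and 162, 135 and 171 in cKO proximal and 129, 156 and 233 in WT proximal libraries. Its interaction was -1.71 ± 0.42 (SE; limma adjusted p = 0.0826). Pcna, lower in cKO distal and at higher counts in cKO proximal libraries, had an interaction of -0.84 ± 0.21 (SE; limma adjusted p = 0.0869). Of the mitotic genes Kif20a had -1.63 ± 0.46 and Mki67 -1.41 ± 0.42 (SE; limma adjusted p = 0.122 and 0.144). DESeq2 called 3 of the 42, Mcm2, Pcna and Uhrf1 (adjusted p = 0.0255, 0.0312 and 0.0374), edgeR called 0, and limma with libraries of the same animal number as a block called Mcm2 (adjusted p = 0.0482), as did limma without WT proximal library 3 (adjusted p = 0.0464). The block called 460 of all genes, against 99 without it.

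Along the WT intestine, nearly all of these genes were higher in the distal segment. Of the S phase genes 20 of 23 rose in distal over proximal WT libraries and of the mitotic genes 18 of 19, where 11.9% of all genes rose and 12.2% fell. The median log2 fold change was 1.49 over the S phase genes and 1.84 over the mitotic genes, against 0.05 over all genes. Uhrf1 had 615, 719 and 516 counts in WT distal libraries, against 107, 114 and 144 in WT proximal libraries (2.33 ± 0.26 SE, limma adjusted p = 3.33e-05). Mcm5 had 761, 871 and 695 counts in WT distal libraries, against 154, 232 and 217 in WT proximal libraries (1.96 ± 0.26 SE, limma adjusted p = 0.000142). The distal libraries of both genes lay far above all proximal ones.

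Top2a had 1023, 1354 and 1157 counts in WT distal libraries, against 227, 266 and 326 in WT proximal libraries (2.11 ± 0.26 SE, limma adjusted p = 8.07e-05). Cdc20 had 449, 455 and 449 counts in WT distal libraries, against 75.8, 146 and 147 in WT proximal libraries (1.93 ± 0.27 SE, limma adjusted p = 0.000207). The 4 genes that did not pass were Cdt1, Pcna and Rrm2 among the S phase genes and Plk1 among the mitotic genes, with log2 fold changes of 0.34, 0.26, 1.18 and 0.67 (limma adjusted p = 0.337, 0.243, 0.0526 and 0.0648). All 18 mitotic calls and 16 of the 20 S phase calls held without each library in turn, and those of E2f1, Cdc6, Mcm6 and Gins2 did not. All 10 B cell markers were higher in WT distal libraries as well, by a median of 3.54 (log2). With the B cell markers as covariate 0 of the 42 genes passed, while the median log2 fold change was 1.52, against 1.66 without it, and the median standard error was 0.70, against 0.31. The marker level of WT distal minus WT proximal libraries was 3.115 (log2), with a standard deviation of 0.68 within groups. Segment and B cell content of the WT libraries thus cannot be told apart.

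In the cKO intestine fewer of these genes passed the test between segments, and most of those were mitotic genes. Of the S phase genes 4 rose and 1 fell in distal over proximal cKO libraries, and of the mitotic genes 9 rose and 0 fell, where 4.16% of all genes rose and 6.36% fell. The median log2 fold change was 0.42 over the S phase genes and 0.85 over the mitotic genes, against -0.02 over all genes. Of the B cell markers 0 of 10 passed here, with a median of -0.06 and with summed levels of 155 to 549 in cKO distal and 231 to 439.7 in cKO proximal libraries. With the B cell markers as covariate 12 genes rose and 1 fell, against 13 and 1 without it. The difference between the WT and the cKO step is the interaction above.

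The S phase genes that rose in cKO distal libraries were Tk1, E2f2, Ccne2 and Uhrf1. Tk1 had 174, 266 and 234 counts in cKO distal libraries, against 96.9, 119 and 105 in cKO proximal libraries (a log2 fold change of 1.05 ± 0.20 SE, limma adjusted p = 0.00426). E2f2 had 334, 707 and 334 counts in cKO distal libraries, against 107, 218 and 123 in cKO proximal libraries (1.58 ± 0.31 SE, limma adjusted p = 0.00441). Both passed in all 6 fits that each left out 1 library, which the other called genes of this comparison did not. Ccne2 rose by 1.02 ± 0.27 and Uhrf1 by 0.93 ± 0.26 (SE; limma adjusted p = 0.0254 and 0.0366). Pcna fell, with 848, 917 and 971 counts in cKO distal libraries, against 1388, 1252 and 1447 in cKO proximal libraries (-0.58 ± 0.15 SE, limma adjusted p = 0.0239). None of the 10 licensing and helicase genes passed, Mcm2 standing at 0.16 and Mcm6 at -0.34 (limma adjusted p = 0.802 and 0.438).

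The 9 mitotic genes that rose in cKO distal libraries were Cenpf, Cdc20, Top2a, Aurkb, Aurka, Tpx2, Cdk1, Ccnb1 and Birc5. Cenpf had 56.2, 153 and 81.9 counts in cKO distal libraries, against 28.3, 33.9 and 37.3 in cKO proximal libraries (1.41 ± 0.32 SE, limma adjusted p = 0.0125). Cdc20 had 236, 397 and 276 counts in cKO distal libraries, against 126, 166 and 121 in cKO proximal libraries (1.11 ± 0.27 SE, limma adjusted p = 0.0168). Both sets of libraries were apart. The other 7 rose by 0.77 (Birc5) to 1.25 (Cdk1), with limma adjusted p of 0.0182 to 0.0437. These calls turned on single libraries. The mitotic count was 16, 0 and 2 without cKO distal library 1, 2 or 3, and 2, 4 and 2 without cKO proximal library 1, 2 or 3. The S phase count, 5 with all libraries, was 8, 2 and 3 in the first 3 of these fits and 2, 3 and 2 in the others.

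**Figure D5:**
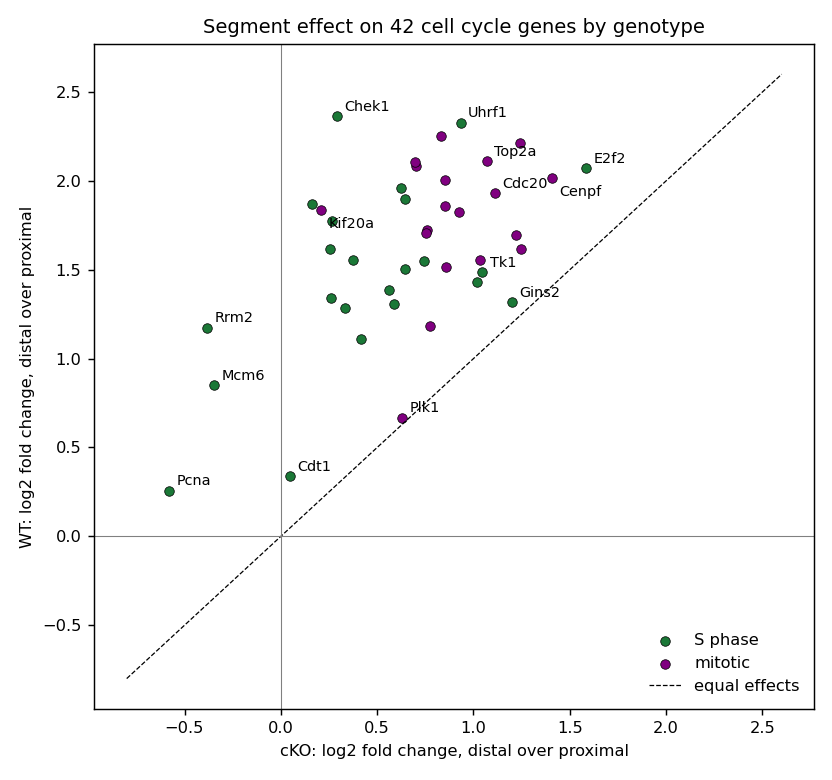
Log2 fold change of distal over proximal intestine in cKO (horizontal axis) and in WT (vertical axis) for the 23 S phase genes (green) and the 19 mitotic genes (purple), with the dashed line of equal effects. All 42 points lie above the line, Plk1, Cdt1 and Gins2 nearest to it, and Pcna is at -0.58 in cKO and 0.26 in WT.

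The balance of the 2 classes was also taken in each library. The mean log2 level of the S phase genes minus that of the mitotic genes was -0.20, -0.53 and -0.03 in cKO distal, 0.10, 0.06 and -0.14 in WT distal, 0.27, -0.04 and 0.33 in cKO proximal, and 0.35, 0.26 and 0.36 in WT proximal libraries. The WT distal libraries were all below the WT proximal ones. In cKO the segments overlap, since distal library 3 stood above proximal library 2, and the cKO distal libraries overlap with the WT distal ones. These are levels over the genes chosen, and no test was made of them.

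Further genes of the same processes, also chosen with earlier results known, were taken in distal intestine. Of 55 further S phase genes 22 fell, 0 rose and 33 did not pass, with a median log2 fold change of -0.77, and of 66 further mitotic genes 28 fell, 0 rose and 38 did not pass, with a median of -0.89, where 11.7% of all genes fell. Among the replication genes, Rfc1, the large subunit of the clamp loader, Rpa1, which coats single-stranded DNA, and Pole, the leading-strand polymerase, fell by 1.17, 1.42 and 1.90 on the log2 scale (limma adjusted p = 0.000259, 0.000355 and 0.00142). Among the mitotic genes, Cdc25b, the phosphatase that activates Cdk1, Mybl2, which encodes B-Myb, and Ncapg2, a condensin II subunit, fell by 1.93, 1.87 and 1.89 (limma adjusted p = 6.86e-05, 0.000521 and 0.000772). Mybl2 had 45.6, 63.1 and 73.4 counts in cKO distal libraries, against 203, 238 and 221 in WT distal libraries. Cdc25b was the only gene of these 2 lists called in proximal intestine, with 99.0, 63.6 and 91.3 counts in cKO proximal libraries, against 186, 153 and 187 in WT proximal libraries (-1.06 ± 0.23 SE, limma adjusted p = 0.0145).

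Among 28 genes that control G1, before the commitment to replicate, 4 rose and 5 fell in distal intestine, with a median log2 fold change of -0.04. These shares are near those over all genes, of which 13.3% rose and 11.7% fell. Ccnd2, cyclin D2, had 5614, 4678 and 6331 counts in cKO distal libraries, against 833, 1912 and 1690 in WT distal libraries (1.98 ± 0.32 SE, limma adjusted p = 0.000605). The groups were far apart. Ccnd2 also rose in proximal intestine, with 2347, 1856 and 2638.5 counts in cKO proximal libraries, against 607, 1309 and 1176 in WT proximal libraries (1.21 ± 0.32 SE, limma adjusted p = 0.0345). The Cdk4 and Cdk6 inhibitors Cdkn2d and Cdkn2c fell by 1.61 and 1.28 in distal intestine (limma adjusted p = 0.000443 and 0.00115), and Cdkn2c fell by 0.79 in proximal intestine (limma adjusted p = 0.0451). In proximal intestine 2 of the 28 genes rose and 2 fell, where 4.21% of all genes rose and 4.05% fell. Ccng2 had the smallest p of the 28 there, with a log2 fold change of -1.01 (limma adjusted p = 0.0145). Between segments, Ccnd1, cyclin D1, was higher in distal libraries of both genotypes, with 632.5, 1079.5 and 676 counts in cKO distal libraries, against 102, 111 and 82.9 in cKO proximal libraries (2.97 ± 0.35 SE, limma adjusted p = 7.41e-05). In WT it had 433.5, 464.5 and 398.5 counts in distal libraries, against 33.7, 89.8 and 108.5 in proximal libraries (2.62 ± 0.35 SE, limma adjusted p = 0.00014).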

How the data were processed

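RNA of small intestine was extracted with Trizol and made into libraries with the NuGEN Ovation V2 kit, per the labels' protocols. The submitters' processing notes name mm10, STAR and DESeq2 1.28.1. The deposited sample values are a scaled signal: all 206100 values of the authors' table were whole multiples of a step of their column (within 0.001 steps), so each stands for (read count + 1) over the size factor of its column. Depth was 11242024 to 17722756 recovered reads. The authors' deposited fold changes were not used. The rule by which 17175 genes were kept in that table is not given in the sources used here.

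Differences were tested with limma 3.58.1 (R 4.3.3) on log2(value + 1) with a trend, 4 group means and all 12 libraries, Benjamini-Hochberg adjusted over 17175 genes, at adjusted p under 0.05. A filter (a value of at least 1 in 3 libraries) removed 0 genes. The design set edgeR for whole counts; as the table holds scaled values, edgeR 4.0.16 and DESeq2 1.42.0 on the recovered reads were alternatives, and edgeR called 4207 genes in distal and 1290 in proximal intestine, against 4297 and 1418 by limma. Fold changes of low genes are understated on this scale. Levels per kilobase use the exon length in GENCODE M21, which takes in every annotated exon of a gene, whether or not it was transcribed here. The covariate fits use the mitochondrial share or the mean level of 18 B cell markers. The steps were tested on simulated data.

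The 42 genes, the other gene lists, the markers and the motifs were chosen with earlier results of these data known. Full values are given for the 2 genes with the smallest p in each of 7 role groups in distal intestine, for the S phase and the mitotic gene with the distal fold change closest to 0 (Tyms and Plk1), for the 2 S phase and 2 mitotic genes with the smallest p in the other comparisons, and for called genes; values of Ccne1, E2f2, Gins2, Pcna, Chek1, Mki67 and Ccna2 in distal intestine were added after they were seen.

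Libraries carry the numbers 1 to 3, and both segments have the same sample names (WT1, KO1 and the like). Deviations from the group means of libraries of 1 number correlated at 0.29, 0.35 and 0.48 between the cKO segments and at 0.36, 0.30 and 0.34 between the WT segments, so numbers were taken as animals that pair the segments. The main limma fit did not use this pairing. With it as a block, 4935 of all genes were called between WT segments and 2601 between cKO segments, against 4137 and 1806 without it. Between genotypes the correlations were -0.20 to 0.12, and the numbers pair nothing.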

Additional observations from a re-analysis of the deposited data

How the results depend on the processing

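In the fits without each replicate in turn, which leave 2 libraries in a group, the distal cKO over WT comparison called 10 to 18 S phase and 2466 to 4954 of all genes, the proximal one 580 to 1360 of all genes, the interaction 0 to 1 S phase and 7 to 266 of all genes, the WT segments 2741 to 3924 of all genes, and the cKO segments 2 to 8 S phase, 0 to 16 mitotic and 1031 to 1545 of all genes. Without both cKO libraries numbered 1, 10 S phase, 4 mitotic and 2160 of all genes were called in distal intestine, 766 of all genes in proximal intestine, 2 in the interaction and 862 between cKO segments. With the B cell marker level as covariate, 0 S phase, 0 mitotic and 0 of all genes were called in distal intestine, 113 of all genes in proximal intestine, 0 in the interaction, and 0, 0 and 208 between WT segments. In that fit Bub1b, lower in cKO distal libraries without the covariate, had a log2 fold change of 0.16, and 36 of the 42 genes had a distal fold change below 0, against 41 without it. With the mitochondrial share as covariate, 6 S phase, 2 mitotic and 1356 of all genes were called in distal and 292 of all genes in proximal intestine, and 5 mitotic genes between cKO segments. DESeq2 called 2304 of all genes in proximal intestine, 3 S phase and 594 of all genes in the interaction, and 8 S phase and 2762 of all genes between cKO segments. The interaction over all genes gave 59 with edgeR, 18 with voom weights and 198 with a pseudocount of 10. Fitting the 4 groups in pairs called 3 S phase and 4 mitotic genes between cKO segments. With the replicate block by animal, the interaction called 1 S phase and 460 of all genes, and no other count of calls moved by over 1.5 times. The causes were not tested, other than fewer libraries. Chek1, a gene with few reads, had the largest standard error of the 42 genes in distal intestine (0.47, log2). Gins2, also with few reads, stood at 0.39, behind E2f1 (0.43) and Rrm2 (0.41). What set the precision was not tested.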
